A study of Mus musculus with 12 samples.

Results

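Glucose uptake, glucose sensing and glycolysis in the liver are described here through 7 genes: Slc2a2, Gckr, Mlxipl, Khk, Pklr, Pfkfb1 and Pfkfb3. They were chosen by symbol, with earlier results of these data known, and all 7 were found among the 20069 genes of the mRNA table. The samples were 12 liver poly(A) RNA libraries from untreated wild-type C57BL/6 male mice of 3 to 6 months, kept for at least 2 weeks under 12 hr of light and 12 hr of darkness. ZT is the number of hours after lights on. Livers were collected in the light phase (ZT2, ZT6 and ZT10) and in the dark phase (ZT14, ZT18 and ZT22). Each time was sampled once in series 1 and once in series 2, and how many mice went into a sample is not given in the sources used here. With 2 samples per time, every p-value rests on these 12 samples alone. No genotype, feeding or treatment contrast is part of the data.

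Glucose enters the hepatocyte through GLUT2, the facilitative transporter encoded by Slc2a2, and is held in the cell by phosphorylation. Gckr encodes a regulatory protein that acts on this step. Mlxipl encodes ChREBP, a transcription factor that raises lipogenic and glycolytic genes when sugar phosphates accumulate, and Pklr, encoding liver pyruvate kinase of the last step of glycolysis, is its classical target. Khk encodes ketohexokinase, which phosphorylates fructose. Pfkfb1 and Pfkfb3 encode enzymes that make and degrade fructose 2,6-bisphosphate, the activator of phosphofructokinase: Pfkfb1 gives the liver form, and Pfkfb3 a form with high kinase activity. Mice eat mostly in the dark phase.

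The promoter of Pklr and those of Khk, Mlxipl and Pfkfb3 are shown because they hold the letters of a carbohydrate response element or of an E-box, the sequence that the clock factors CLK and BMAL1 and other basic helix-loop-helix factors bind. They are taken from the RefSeq promoter windows of GRCm38.p6, in which all 7 genes matched, with 13 windows. The 250 bases upstream of each start site were searched on both strands. Each sequence below runs 5′ to 3′ on the gene's strand, with the matched letters in capitals and 20 bases on either side.
Pklr, chr3:89136433-89136489, + strand: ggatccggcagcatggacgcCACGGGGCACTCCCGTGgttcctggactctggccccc
Khk, chr5:30921468-30921513, + strand: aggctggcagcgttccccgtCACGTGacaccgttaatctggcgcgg
Mlxipl, chr5:135089772-135089817, + strand: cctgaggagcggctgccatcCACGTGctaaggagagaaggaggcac
Pfkfb3, chr2:11502118-11502163, - strand: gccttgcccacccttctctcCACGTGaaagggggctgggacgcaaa

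The Pklr match begins 170 bases before the start site and was searched as CACGGG and CCCGTG with any 5 bases between them, a pattern written from the known element of that gene, which was found in 1 of 32851 promoter windows. The E-box CACGTG lay 71 bases before the start site of Khk, 98 before that of Mlxipl and 53 before that of Pfkfb3, and 6.02% of all windows hold it. The ROR core TAGGTCA (2.23% of windows) was found in the second, more upstream window of Pklr, and the D-box TTATGTAA (0.819% of windows) in none of the 13. A match is a description of letters, not a binding site, and the motifs were picked with the sequences and earlier results known.

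All mRNA levels are in reads per base pair of exon (rpbp) on the scale of 40000000 uniquely mapped sequences. A gene was taken as expressed with at least 1 sample above 8 rpbp, which left 10198 genes and all 7 members. Summed rpbp ranged from 1487469 to 1546116 per sample. The ZT2 libraries stood apart: their median correlation with the samples of other times, across genes, was 0.942 and 0.945, against 0.960 to 0.971 for the other 10, and tests of the 7 genes that passed with these libraries are also given without them. All 10 hepatocyte markers looked up (among them Alb, Apoa1 and Cps1) were expressed.

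Levels differed widely between the 7 genes, on the per-length scale of rpbp. Over the 12 samples the mean level was 832 rpbp for Khk, 418.5 for Pklr, 314 for Slc2a2, 146 for Gckr, 136 for Mlxipl and 31.3 for Pfkfb1. Pfkfb3 was near the detection limit, with a mean of 5.32 rpbp, and passed the minimum in a single sample. Khk had a higher mean than 98.0% of expressed genes, and Pfkfb3 than 2.22%.

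**Figure D1:**
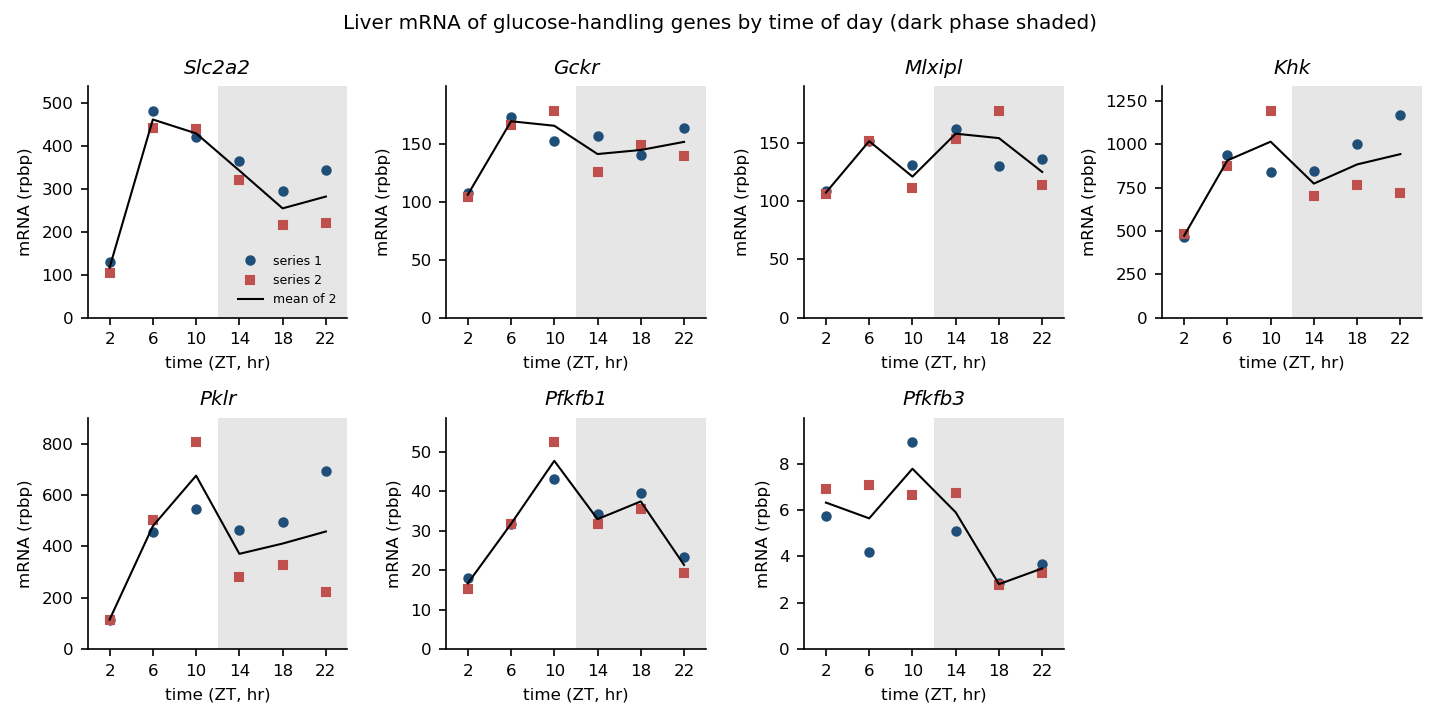
mRNA level in rpbp against time of day for the 7 genes, with the sample of series 1 (circles), that of series 2 (squares) and their mean (line); the dark phase is shaded and each axis begins at 0. The 2 samples at ZT2 are the lowest of 12 for Slc2a2, Gckr, Mlxipl, Khk, Pklr and Pfkfb1, while Pfkfb3 is lowest at ZT18.

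In early light, at ZT2, 6 of the 7 genes were at their lowest. For Slc2a2, Gckr, Mlxipl, Khk, Pklr and Pfkfb1 both ZT2 samples lay below all 10 other samples, a pattern shown by 9.58% of expressed genes (977 of 10198). No gene of the 7 had both ZT2 samples above all others, as 10.4% of expressed genes did. Against the mean of the other 5 times, 5 of the 7 were lower at ZT2 by limma at an adjusted p below 0.05 (Pklr, Slc2a2, Pfkfb1, Khk and Gckr), where 9.79% of expressed genes were called lower. None was called higher, where 9.62% of expressed genes were. The contrasts of 1 time against the other 5 were added after the values were seen. The 7 genes were chosen with earlier results of these data known. These shares and p-values are thus a description and no independent test of the 7. The median difference of the 7 genes was -0.91 on the log2(rpbp + 1) scale, beside 0.04 over all expressed genes. In bulk liver, fewer cells of a type and less RNA per cell cannot be told apart.

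Pklr had the largest ZT2 difference of the 7, at -1.95 ± 0.37 (log2, SE; adjusted p = 0.00890), with 59 of 10198 genes showing a lower value. Slc2a2 followed with -1.55 ± 0.17 (adjusted p = 0.000945), then Pfkfb1 with -0.95 ± 0.11 (adjusted p = 0.00109) and Khk with -0.91 ± 0.19 (adjusted p = 0.0145). Gckr fell less, by 0.53 ± 0.11 (adjusted p = 0.0111). The Mlxipl difference of -0.39 ± 0.12 missed the limit (adjusted p = 0.0569), and that of Pfkfb3 was 0.33 ± 0.17 (adjusted p = 0.20). Expressed as the mean of the other 10 samples over the ZT2 mean, the levels were 4.17-fold higher for Pklr, 3.03-fold for Slc2a2, 2.06-fold for Pfkfb1, 1.91-fold for Khk, 1.46-fold for Gckr and 1.32-fold for Mlxipl.

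These ZT2 calls rest on 2 libraries. With either one left out, Slc2a2 and Pfkfb1 still passed (largest adjusted p 0.0224 and 0.0239), while Pklr, Khk and Gckr did not: without the series 1 sample the adjusted p was 0.0883, 0.126 and 0.0907, and without the series 2 sample 0.0751, 0.0959 and 0.0960, with the size of each difference little changed (Pklr -1.95 and -1.96, Khk -0.89 and -0.94, Gckr -0.55 and -0.51). Over all genes the ZT2 calls split into 981 higher and 998 lower as deposited, and into 748 higher and 1211 lower after scaling by size factors, which moved the ZT2 samples by 0.05 log2 against the others. With size factors, Mlxipl joined the 5 genes (-0.43, adjusted p = 0.0360), as it did with a minimum of 16 rpbp (0.0458), with a mean-variance trend (0.0432) and without the series 1 or series 2 sample of ZT18 (0.0252 and 0.0465) or the series 2 sample of ZT22 (0.0478).

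Markers of other cell types moved with the same samples. The summed level of 7 Kupffer cell markers (6 expressed, Marco below the minimum) was 687 and 689 rpbp at ZT2 against 357 to 550.1 in the other samples, and 4 of the 6 were called higher at ZT2 (Clec4f, Cd5l, Vsig4 and C1qa). The sum of the 10 hepatocyte markers was 108637 and 112198 rpbp at ZT2 against 142417 to 180984 elsewhere, with 4 of the 10 lower (Alb, Ttr, Tat and Cyp2e1) and 3 higher (Apoa1, Apob and Fgb). Endothelial markers (218 and 223 against 190.2 to 227), stellate cell markers (219 and 245 against 212 to 279, with Reln called lower) and erythroid markers (397 and 513 against 353 to 1174) overlapped between ZT2 and the other times, and so did those of cholangiocytes (129 and 229 against 63.7 to 144, although Sox9 and Spp1 were each called higher at ZT2), neutrophils (17.4 and 21.4 against 2.52 to 21.96) and adipocytes (1.52 and 3.04 against 1.48 to 41.8). None of 5 lymphocyte or 4 proliferation markers was expressed. The part of these markers in the ZT2 levels was not tested.

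**Figure D2:**
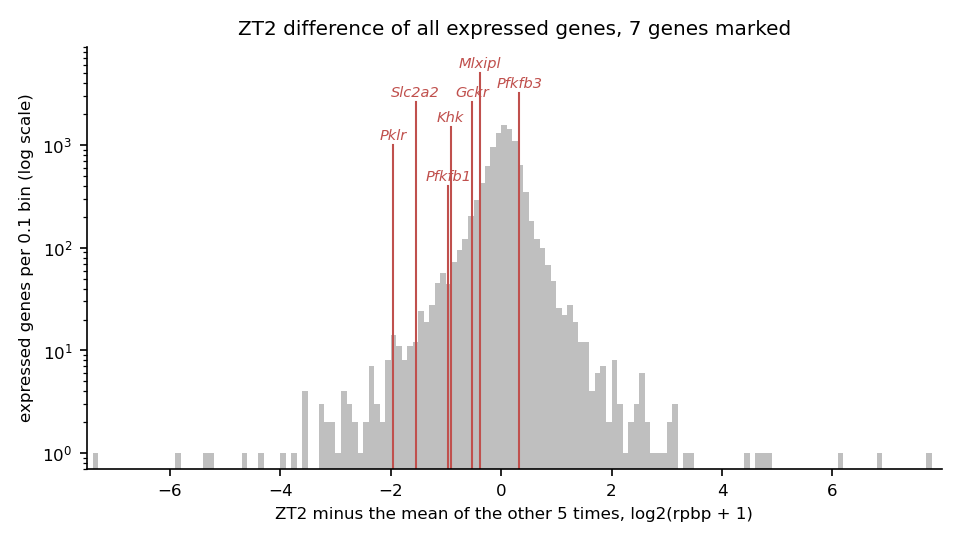
Number of expressed genes (log scale) by their log2 difference between ZT2 and the mean of the other 5 times, in bins of 0.1, with the 7 genes marked by lines. Pklr at -1.95 and Slc2a2 at -1.55 lie in the left tail, where 59 and 101 of 10198 genes have lower values, and Pfkfb3 at 0.33 lies right of the centre.

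Glucose uptake was represented by Slc2a2 (chromosome 3, 28596825 to 28627278, + strand, NCBIM37). Its level in series 1 was 129 rpbp at ZT2, 481 at ZT6, 419 at ZT10, 363 at ZT14, 293 at ZT18 and 343 at ZT22. In series 2 it was 104.5, 441, 438, 320.5, 215 and 219.9 rpbp at the same times. The transporter mRNA was 3.74-fold higher at ZT6 than at ZT2 in series 1 and 4.22-fold in series 2, and both ZT6 samples were above the other 10, as in 5.68% of expressed genes. Its ZT6 level exceeded the mean of the other times by 0.83 ± 0.17 (log2, SE; adjusted p = 0.0262), and 3.87% of expressed genes were called higher at ZT6. Leaving out the ZT6 sample of series 1 or series 2 gave an adjusted p of 0.227 or 0.172, leaving out both ZT2 samples 0.152, and setting no minimum 0.0573. In the order of the means (ZT6, ZT10, ZT14, ZT22, ZT18, ZT2), the samples of ZT14 and ZT22 and those of ZT22 and ZT18 overlapped, and the other neighbours did not.

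By the study's measure of rhythm, Slc2a2 passed narrowly. F24 is the share of the variance of the 12 values taken up by a 24 hr cosine, and a gene was called rhythmic with a permutation p below 0.05, F24 above 0.45 and a highest over lowest value above 1.5. Slc2a2 had F24 = 0.514, a permutation p of 0.0473, a 4.60-fold range and a peak at ZT10.2. After adjustment over all expressed genes p was 0.183, and on log2 values p was 0.0651. Without the ZT2 samples F24 rose to 0.834 (permutation p = 0.0026) and the peak moved to ZT7.2. In limma the 6 times differed (F = 21.1, adjusted p = 0.00469), while the 5 times without ZT2 had an adjusted p of 0.126, and the 24 hr cosine was past the limit only without ZT2 (peak to trough 0.88 ± 0.17 log2, adjusted p = 0.0336, against 1.29 ± 0.42 and 0.146 with it). Within a single series of 6 values F24 was 0.381 (series 1, exact permutation p = 0.517) and 0.710 (series 2, exact permutation p = 0.20), where 720 orders allow no p below 0.0167.

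The regulator gene Gckr (chromosome 5, 31599954 to 31629673, + strand) varied little apart from ZT2. In series 1 its level was 108 rpbp at ZT2, then 173, 153, 157, 140.1 and 164 at ZT6 to ZT22. In series 2 it was 104.4 at ZT2, then 166, 178, 125, 149 and 139.6. The highest sample was 1.71 times the lowest, and from ZT6 to ZT22 every pair of neighbouring times in the order of levels overlapped. Gckr was not rhythmic (F24 = 0.210, permutation p = 0.341), and the difference between the 6 times had an adjusted p of 0.0523 (limma), which was 0.0278 with size factors, 0.0396 with a minimum of 16 rpbp, 0.0347 with a mean-variance trend, 0.0431 and 0.0492 without the ZT14 sample of series 1 and series 2, and 0.528 without ZT2.

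Mlxipl (chromosome 5, 135582761 to 135614254, + strand), encoding ChREBP, had the narrowest range of the 7, with 106 rpbp in the lowest sample, 177 in the highest and a 1.68-fold range. Series 1 gave 109, 151, 131, 162, 130.3 and 136 rpbp from ZT2 to ZT22, and series 2 gave 106, 151, 111, 153, 177 and 113. The samples agreed closely at ZT2, ZT6 and ZT14 and least at ZT18. Mlxipl was not rhythmic (F24 = 0.279, permutation p = 0.229), and neither the 6 times (adjusted p = 0.106) nor the light and dark phases (0.20 ± 0.09 log2 higher in the dark, adjusted p = 0.230) differed past the limit in limma. Leaving out the series 1 sample of ZT18 brought the 6 times to an adjusted p of 0.0465.

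Fructose entry was represented by Khk (chromosome 5, 31223929 to 31233619, + strand), the most abundant mRNA of the 7. Series 1 gave 465 rpbp at ZT2, then 941, 838, 847, 1004 and 1168 up to ZT22. Series 2 gave 480.2 rpbp at ZT2, then 873, 1193, 699.5, 763 and 718.5. Levels at ZT6 were 2.02-fold those at ZT2 in series 1 and 1.82-fold in series 2, and stayed above 699 rpbp thereafter. Between ZT6 and ZT22 every neighbouring pair of times overlapped, and the series ran apart at ZT22, where series 2 was 0.70 log2 below series 1. Khk had the lowest F24 of the 7 (0.130, permutation p = 0.528), and the adjusted p for a difference between times was 0.0796 in limma over 6 times and 0.801 without ZT2; leaving out the ZT22 sample of series 1 or series 2 brought it to 0.0478 or 0.0362.

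Pklr (chromosome 3, 88940064 to 88950706, + strand), of the last glycolytic step, had both the widest range and the poorest agreement between the series. In series 1 it was 115 rpbp at ZT2, 455 at ZT6, 546 at ZT10, 463 at ZT14, 494 at ZT18 and 692.5 at ZT22. In series 2 it was 115.0, 504.2, 806, 279, 328 and 224 rpbp. The ZT2 values were nearly equal, while at ZT22 series 1 was 3.09 times series 2. The highest sample was 7.02 times the lowest, and the median absolute difference between the series was 0.57 log2, beside 0.15 over all expressed genes.

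In the order of its means Pklr went from ZT10 through ZT6, ZT22, ZT18 and ZT14 to ZT2, and only ZT10 and ZT2 were free of overlap with their neighbours. It was not rhythmic (F24 = 0.225, permutation p = 0.318). The 6 times differed in limma at an adjusted p of 0.0490, a call lost under 14 of 19 alternatives, with 0.192 and 0.186 when the series 1 or the series 2 sample of ZT2 was left out, 0.0630 to 0.0969 when any of the samples of ZT6, ZT10, ZT14 or ZT18 was, and 0.633 without ZT2. Dark minus light was 0.82 log2 in series 1 and -0.40 in series 2, and the difference of -1.22 ± 0.99 (SE) had a p of 0.247, adjusted to 1.00, in limma. No expressed gene passed that test of the series after adjustment, and 246 of 10198 had an unadjusted p below 0.05. The Pklr reading has a further limit: Hcn3 lies on the opposite strand and shares 711 exon bases with Pklr in the NCBIM37 annotation (GENCODE vM1), and the libraries do not keep strand. Hcn3 was listed at 1.68 to 37.8 rpbp.

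**Figure D3:**
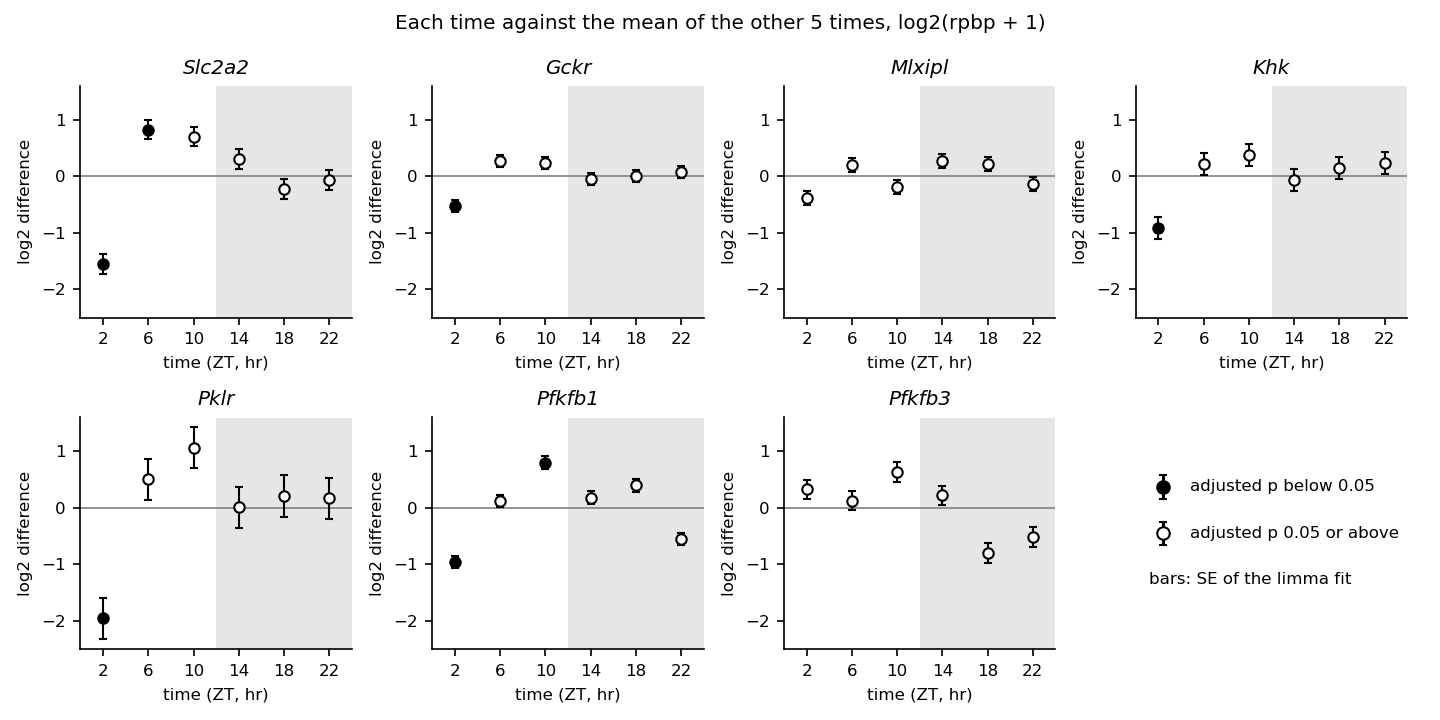
Difference between each time and the mean of the other 5 times on the log2(rpbp + 1) scale, with the SE of the limma fit, for each of the 7 genes; filled points have an adjusted p below 0.05. The filled points are ZT2 for Slc2a2, Gckr, Khk, Pklr and Pfkfb1, ZT6 for Slc2a2 and ZT10 for Pfkfb1.

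Control of phosphofructokinase through fructose 2,6-bisphosphate included the gene with the highest F24 of the 7. Pfkfb1 (chromosome X, 147022772 to 147078421, + strand) was 18.1 rpbp in series 1 at ZT2, then 31.8, 43.1, 34.3, 39.5 and 23.4 at ZT6 to ZT22. In series 2 it was 15.2 rpbp at ZT2, then 31.8, 52.5, 31.6, 35.4 and 19.3. Both ZT10 samples were above the other 10, as in 2.68% of expressed genes, and the level then fell to 21.4 ± 2.94 rpbp (SD, n = 2) before lights on. In the order ZT10, ZT18, ZT14, ZT6, ZT22, ZT2, ZT14 and ZT6 overlapped and no other neighbours did. Pfkfb1 exceeded the mean of the other times by 0.80 ± 0.11 log2 at ZT10 (adjusted p = 0.00830), where 2.23% of expressed genes were called higher. Without the series 2 sample of ZT10 the difference was 0.66 (adjusted p = 0.0757), and without both ZT2 samples 0.64 (0.0459).

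Pfkfb1 met the study's stricter criteria, with F24 above 0.6 and a wider range, at F24 = 0.692 (permutation p = 0.00580, adjusted 0.0682), a 3.44-fold range and a peak at ZT12.1. Without the ZT2 samples F24 was 0.572 (permutation p = 0.0379, adjusted 0.198), still rhythmic by the unadjusted p but short of the stricter limit. It was the one gene of the 7 whose 24 hr cosine passed in limma (peak to trough 1.20 ± 0.23 log2, peak at ZT12.3 ± 0.72 hr, adjusted p = 0.0198), a call made for 8.61% of expressed genes. That call was lost narrowly without either ZT2 sample (adjusted p = 0.0543 for series 1 and 0.0505 for series 2) or without the series 2 sample of ZT22 (0.0513), and without both ZT2 samples the cosine had 0.91 ± 0.24 log2 and an adjusted p of 0.102. Its difference between the 6 times (F = 28.6, adjusted p = 0.00278) held under all 19 alternatives, with 0.0275 as the highest adjusted p. Apex2 shares 123 exon bases with Pfkfb1 on the opposite strand and was listed at 2.96 to 5.56 rpbp.

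Pfkfb3 (chromosome 2, 11393057 to 11423728, - strand) ran differently at a far lower level. From ZT2 to ZT22 it was 5.72, 4.20, 8.92, 5.08, 2.84 and 3.68 rpbp in series 1, and 6.92, 7.08, 6.64, 6.72, 2.76 and 3.28 rpbp in series 2. Both ZT18 samples were below the other 10, as in 3.13% of expressed genes, the ZT22 samples came next, and all samples of ZT2 to ZT14 were above both. Only the series 1 sample of ZT10 exceeded 8 rpbp, so the gene was tested through a sample near its own peak, its calls are given as a description, and a minimum of 16 rpbp left it out. The values met the criteria for rhythm with F24 = 0.590 (permutation p = 0.0234, adjusted 0.130, or 0.202 with no minimum), a 3.23-fold range and a peak at ZT8.2. Without ZT2 its F24 was 0.697 and its peak at ZT9.5.

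The ratio of Pfkfb1 to Pfkfb3 mRNA within a sample was lowest at ZT2 (3.17 and 2.20) and highest at ZT18 (13.9 and 12.8). In the samples of ZT6, ZT10, ZT14 and ZT22 it lay between 4.49 and 7.90. The liver form was thus the more abundant mRNA in all 12 samples. For pyruvate kinase, Pklr over Pkm2, the gene of the muscle forms, was 8.83 and 6.82 at ZT2 and 17.0 to 58.9 in the other 10 samples.

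**Figure D4:**
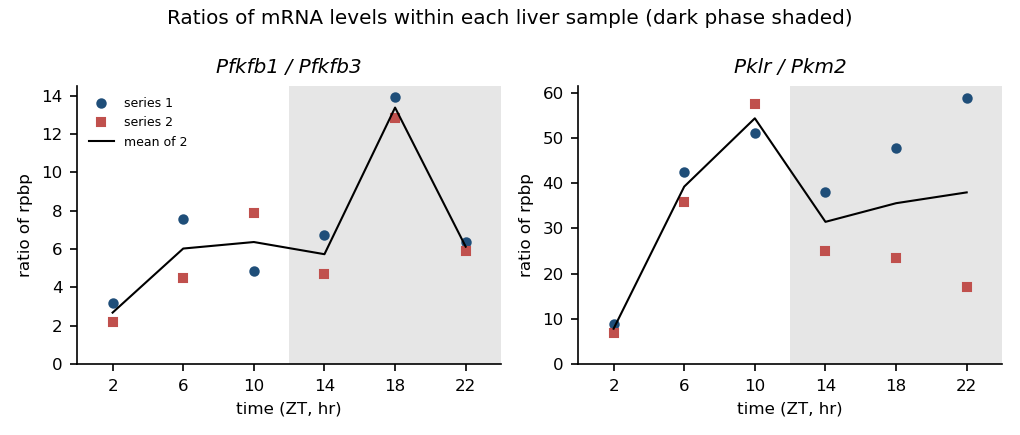
Ratio of 2 mRNA levels (rpbp) within each sample against time of day, for Pfkfb1 over Pfkfb3 and Pklr over Pkm2, with series 1 (circles), series 2 (squares) and their mean (line). Pfkfb1 over Pfkfb3 is highest at ZT18 in both series (13.9 and 12.8), and Pklr over Pkm2 is lowest at ZT2 (8.83 and 6.82).

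Light and dark phases were compared because intake is concentrated in the dark. In limma none of the 6 genes above 8 rpbp in every sample passed the limit (lowest unadjusted p 0.0542, for Mlxipl), where 2.21% of expressed genes were called lower in the dark and 2.84% higher. Pfkfb3, tested through a light-phase sample, was 0.61 ± 0.13 log2 lower in the dark (adjusted p = 0.0339 in limma), and with no minimum the adjusted p was 0.0708. Series 1 gave -0.56 and series 2 -0.66. This call was lost under 11 of 18 alternatives, with adjusted p from 0.0509 to 0.0887 in those 11. Leaving out 1 sample lost it for both samples of ZT2 (0.0650 and 0.0887), ZT18 (0.0632 and 0.0792) and ZT22 (0.0609 and 0.0720), for the series 1 samples of ZT10 (0.0615) and ZT14 (0.0728) and for the series 2 sample of ZT6 (0.0628). For the other 6 genes dark minus light ranged from 0.01 (Slc2a2) to 0.21 log2 (Pklr). Without the ZT2 samples, which belong to the light phase, 2 of the 6 were lower in the dark, Slc2a2 (-0.63 ± 0.14 log2, adjusted p = 0.0376) and Pfkfb1 (-0.38 ± 0.09, 0.0415), where 4.81% of expressed genes were, and Pfkfb3 had -0.62 ± 0.15 (0.0407).

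Of the 6 genes above 8 rpbp in every sample, then, 2 were rhythmic by the study's criteria (Slc2a2 and Pfkfb1), where 19.1% of expressed genes were. Pfkfb3, kept through a single sample near its own peak and given as a description, also met them. Neither of the 2 nor Pfkfb3 passed with an adjusted permutation p. In limma the 6 times differed for 3 of the 6 (Slc2a2, Pklr and Pfkfb1), where 17.6% of expressed genes did. Pfkfb3 had an adjusted p of 0.0297, which passed the limit no longer with no minimum (0.0643) or without the series 1 or series 2 samples of ZT2 (0.0650 and 0.0685), ZT18 (0.0745 and 0.0772) or ZT22 (0.0502 and 0.0576) and without the series 1 sample of ZT10 (0.0534), and had 0.0699 without both ZT2 samples. The 6 genes spanned a median highest over lowest value of 3.00, beside 1.63 over all expressed genes, and had a median F24 of 0.252 beside 0.310. The wide range of Pklr and Khk came with low F24, and that of Pfkfb1 and Slc2a2 with F24 above 0.5.

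Likeness between profiles was described by Pearson's r of log2(rpbp + 1) over the same 12 samples, points that share libraries and the low ZT2 pair, so no p is given. Khk and Pklr had r = 0.97, Gckr had 0.92 with Pklr and 0.90 with Khk, and Slc2a2 had 0.90 with Pklr. Mlxipl reached at most 0.49 with any of the others (Slc2a2), and Pfkfb3 at most 0.10. Over the 10 samples without ZT2 the r of Khk and Pklr was 0.91, that of Gckr was 0.75 with Pklr and 0.70 with Khk, and that of Slc2a2 was 0.68 with Pklr and 0.69 with Pfkfb3. Among all expressed genes, the 3 most like Khk included Dak (0.974), encoding a triose kinase of fructose use, and Pklr (0.970). The 3 nearest to Pklr included its overlapping neighbour Hcn3 (0.991) and the cytochrome P450 gene Cyp2j5 (0.970). The top entries for Slc2a2 were Hpgd (0.975), AK087624 and Spc24, those for Pfkfb1 were Vac14 (0.963), Gpt1 and Pon1, and those for Gckr were OTTMUSG00000010671 (0.951), 8430416H19Rik and Tlcd1. Mlxipl was most like Cyp2d13 (0.961), 4932441K18Rik and Ebp, and Pfkfb3 like 1110019J04Rik (0.918), Chchd4 and 3110001I22Rik.

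The wider pathway was covered by 8 lists with 92 genes, of which 87 were in the table and 61 expressed. Of the 61, 12 were rhythmic (19.7%, beside 19.1% of all expressed genes) and 17 passed the 6-time test (27.9%, beside 17.6%). The 24 hr cosine passed for 4 (6.56%, beside 8.61%; Slc2a9, Sord, Pdk2 and Slc16a1). Of the 12, 2 (Sord and Slc16a1) were rhythmic with an adjusted permutation p, and 2 were in either series alone. The count of 17 was 9 without either ZT6 sample and 10 without the series 2 sample of ZT2, and that of 4 was 2 without either ZT6 sample or the series 1 sample of ZT10. In the dark 2 were higher (3.28%, beside 2.84%; Pdk4 and Slc16a1) and 2 lower (3.28%, beside 2.21%; Pfkm and Slc2a9). At ZT2 4 were higher (6.56%, beside 9.62%; Pfkm, Akr1b3, Foxa1 and H6pd) and 16 lower (26.2%, beside 9.79%). Without the ZT2 samples 12 of the 61 were rhythmic (19.7%, beside 15.1% of all expressed genes), 8 of them among the first 12 (not Pfkl, Pfkm, Ldha and Pdhb). The test of times then passed for 5 of the 61 (8.2%, beside 4.6%), all among the 17, and 8 were called between light and dark (13.1%, beside 9.36%), with 2 of the 4 kept (Slc2a9 and Slc16a1). Of the 20 ZT2 calls 5 were kept without the series 1 sample of ZT2 and 7 without that of series 2, and with size factors 17 were kept, Pfkm, Akr1b3 and Foxa1 being lost. Of the 4 calls between light and dark 0 to 2 were kept when 1 sample was left out, 0 with no minimum, and 2 each with size factors and with the replicate block. Over 19 alternatives the call was lost under 15 for Pfkm, 13 for Slc16a1, 12 for Slc2a9 and 10 for Pdk4. The median ZT2 difference of the 61 was -0.11 log2, beside 0.04 over all expressed genes.

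Of 12 expressed glycolytic genes on the list, 3 were rhythmic and 1, Eno1, was called lower at ZT2 (adjusted p = 0.0469), a call lost under 13 of 18 alternatives. The 3 were Ldha, encoding the lactate dehydrogenase A chain (1276 ± 3.90 rpbp at ZT2, 794 ± 140 at ZT14, SD, n = 2; F24 = 0.642, peak at ZT24.0), and the phosphofructokinase genes Pfkm (15.4 ± 1.92 at ZT2, 9.70 ± 0.54 at ZT14; F24 = 0.614, peak at ZT3.0) and Pfkl (19.3 ± 3.68 at ZT2, 27.6 ± 1.07 at ZT18; F24 = 0.503, peak at ZT16.9). Pfkm was higher at ZT2 (0.32 log2, adjusted p = 0.0288) and lower in the dark (-0.27, adjusted p = 0.0431). Its ZT2 call was lost when either ZT2 library was left out. Among all expressed genes 19.1% were rhythmic, 9.79% lower at ZT2 and 9.62% higher.

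Of the 3 other expressed genes on the list of fructose 2,6-bisphosphate control (Pfkfb2, Fbp1 and the Tigar gene, listed as 9630033F20Rik), none was rhythmic, and Fbp1, whose enzyme opposes phosphofructokinase and is inhibited by fructose 2,6-bisphosphate, was lower at ZT2 (-0.62, adjusted p = 0.0167). The Fbp1 call was lost when either ZT2 library was left out. Hexose transporters had 4 expressed genes besides Slc2a2, and 2 were rhythmic, where 19.1% of all expressed genes were. Slc2a9, a urate and hexose transporter, was 47.6 ± 1.56 rpbp at ZT6 and 26.9 ± 3.54 at ZT18 (F24 = 0.733, peak at ZT7.7) and lower in the dark (-0.37, adjusted p = 0.0388). Slc2a1, encoding GLUT1, was 14.3 ± 1.53 at ZT22 and 8.38 ± 1.56 at ZT10 (F24 = 0.643, peak at ZT21.4) and peaked in the dark phase.

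Fructose and galactose entry followed the ZT2 pattern of Khk in 4 of 7 expressed genes (Dak, Sord, Galk1 and Galm lower, Akr1b3 higher), with a median of -0.48 log2. Of all expressed genes 9.79% were lower at ZT2 and 9.62% higher. The calls of Dak, Galm and Akr1b3, like that of Khk, were lost when either ZT2 library was left out. Sord, encoding the sorbitol dehydrogenase that makes fructose, was 1186 ± 32.4 rpbp at ZT2 and 2455 ± 31.1 at ZT10 and was rhythmic (F24 = 0.798, permutation p = 2e-04, peak at ZT12.4). At the pyruvate dehydrogenase step 5 of 10 expressed genes were lower at ZT2 (Pdk1, Pdk2, Pdk4, Brp44l and Brp44) and 4 were rhythmic: the kinase genes Pdk2 (137 ± 2.23 at ZT6, 72.4 ± 6.19 at ZT22; peak at ZT9.1) and Pdk4 (30.5 ± 3.20 at ZT22, 5.64 ± 0.62 at ZT2; peak at ZT20.1), the pyruvate carrier gene Brp44l (562 ± 13.8 at ZT6, 281 ± 22.97 at ZT2; peak at ZT10.5) and the E1 subunit gene Pdhb (249.9 ± 39.8 at ZT10, 157 ± 23.9 at ZT18; peak at ZT9.2). Pdk4 was higher in the dark by 1.07 log2 (adjusted p = 0.0302). Beside these counts, 9.79% of all expressed genes were lower at ZT2 and 19.1% were rhythmic. The ZT2 calls of Pdk2, Pdk4, Brp44l and Brp44 were lost when either ZT2 library was left out. None of the 4 rhythmic genes passed with an adjusted permutation p.

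Glucose-responsive transcription, with ChREBP's partner Mlx and targets such as Txnip, had 15 expressed genes, none rhythmic. At ZT2 4 were lower (Txnip, Arrdc4, Srebf1 and Klf10), where 9.79% of all expressed genes were, and Foxa1 was higher, where 9.62% were. Srebf1, which drives lipogenic genes under insulin, was at 118 ± 16.9 rpbp at ZT2 and 374 ± 55.0 at ZT6. Leaving out the series 1 sample of ZT2 lost the calls of Arrdc4, Srebf1, Klf10 and Foxa1. Leaving out that of series 2 lost those of Txnip, Arrdc4 and Foxa1. The 6 times differed for Txnip, Arrdc3, Srebf1 and Klf10. The pentose phosphate branch had 6, none rhythmic, and H6pd was higher at ZT2 (0.70 log2, adjusted p = 0.00495). Of 4 monocarboxylate transport genes 2 were rhythmic, where 19.1% of all expressed genes were. Slc16a1, a lactate and pyruvate transporter, was 73.7 ± 16.2 rpbp at ZT22 and 34.4 ± 3.56 at ZT10 (F24 = 0.829, peak at ZT21.8), and Slc16a7 was 104 ± 14.6 at ZT10 and 20.04 ± 0.96 at ZT2 (F24 = 0.655, peak at ZT11.4).

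**Figure D5:**
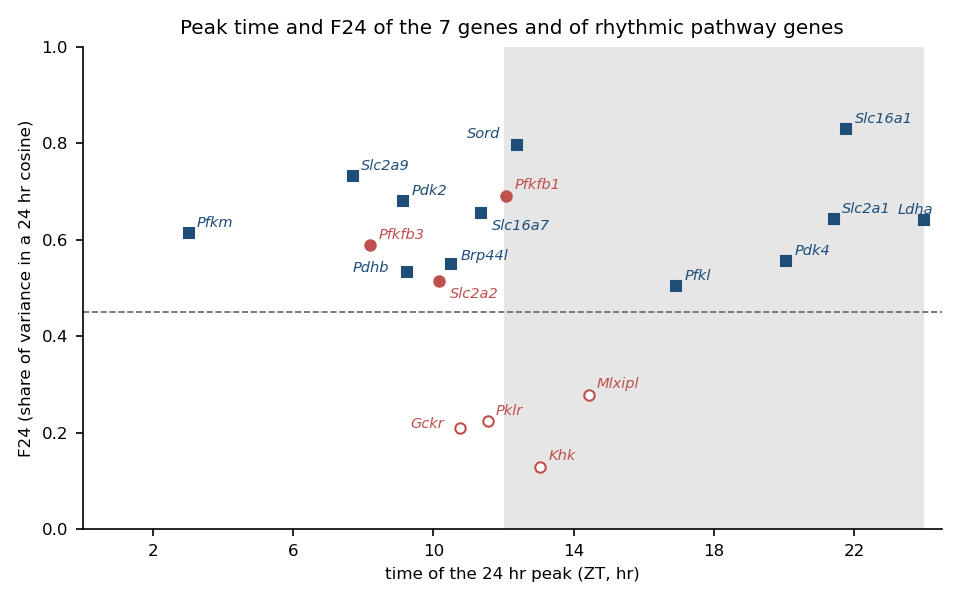
F24 against the time of the fitted 24 hr peak for the 7 genes (circles) and for the rhythmic pathway genes named in the text (squares); filled symbols are rhythmic, the dashed line is the F24 limit of 0.45 and the dark phase is shaded. Slc2a2, Pfkfb1 and Pfkfb3 peak between ZT8.2 and ZT12.1, and Slc16a1, Slc2a1, Pdk4 and Ldha between ZT20.1 and ZT24.0.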

How the data were processed

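Poly(A) RNA of 12 mouse liver samples had been sequenced on a HiSeq2000 from TruSeq libraries. The authors aligned reads to mm9 with TopHat (CASAVA 1.8 in the submitters' processing notes), divided exon coverage by exon length regardless of strand and isoform, and deposited this signal in reads per base pair (rpbp), scaled to 10000000 uniquely mapped sequences. The table is not a count table, so no count test was run, and depth per sample is not used here. The authors' own rhythm columns (an F24 score, a phase and a p-value per gene) were not used. The columns headed ZT20 were taken as ZT22, the time in the labels. Values were multiplied by 4, and genes with 1 value above 8 rpbp kept. F24 was tested with 10000 random orders of the 12 values in Python 3.11.15 (numpy 2.4.6). limma 3.58.1 (R 4.3.3) was run on log2(rpbp + 1), a scale that understates changes of low genes, with Benjamini-Hochberg adjustment over all 10198 expressed genes. The contrasts of each time against the other 5, the series test and the runs without ZT2 were added after the values were seen. Scripts were tested on simulated data. The 7 members and the lists were chosen with earlier results of these data known. Genes named from a list are its rhythmic ones, at most 4 by F24, and the 3 most similar to each member. 2 genes of the glycolysis list are not reported here. Other list and marker genes given by name were picked after their values were seen. Coordinates come from GENCODE vM1. Alternatives were size factors, other minimums and pseudocounts, log2 F24, adjusted permutation p, a mean-variance trend, a replicate block and leaving out samples.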

Additional observations from a re-analysis of the deposited data

How the results depend on the processing

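Counts of genes past the limit moved most with fewer samples. With either series alone 286 (series 1) and 369 (series 2) genes were rhythmic against 1948, and none of the 7 (0 in both); with an adjusted permutation p 491 were, and 0 of the 7. On log2 values 2 of the 7 were rhythmic (Pfkfb1 and Pfkfb3), and with a minimum of 16 rpbp 2 were (Slc2a2 and Pfkfb1). Counts of the 7 include Pfkfb3 where it was tested, kept through a single sample near its own peak. The dark minus light call with all samples is that of Pfkfb3. Leaving out 1 sample at a time, in fits where a lone sample is assumed to vary like the others, gave 533 to 878 genes and 0 to 2 of the 7 for the 24 hr cosine (878 and 1 with all), 724 to 1676 genes and 2 to 4 for the 6 times (1792 and 4), 215 to 447 genes and 0 to 1 for dark minus light (515 and 1), and 392 to 2034 genes and 2 to 6 for ZT2 minus the others (1979 and 5). The low ends of the last 3 came without the series 1 sample of ZT2. Counts moved by over 1.5 times without either ZT2 sample in all 4 tests, without ZT10 (both) or ZT22 (series 2) for the cosine, without ZT6 (both) or ZT14 (series 2) for the 6 times, and without ZT6 or ZT14 (both), ZT22 (series 1), ZT10 or ZT18 (series 2) for dark minus light. With no minimum, dark minus light had 261 genes and 0 of the 7, and the 6 times 2 of the 7; dark minus light also had 0 of the 7 with a minimum of 16 rpbp, which leaves Pfkfb3 out, and with a mean-variance trend.

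Without the ZT2 samples the 6-time test, then over 5 times, had 469 genes and 1 of the 7, the cosine 2 of the 7, and dark minus light 955 genes and 3 of the 7. Dark minus light then turned to -0.20 log2 for Gckr, -0.55 for Pklr, -0.63 for Slc2a2, -0.16 for Khk and -0.38 for Pfkfb1, since the low light-phase samples were gone. With 1 sample left out it ranged from -0.0379 to 0.0686 for Gckr, -0.0573 to 0.484 for Pklr, -0.0939 to 0.119 for Slc2a2 and -0.0296 to 0.0634 for Pfkfb1. Over single genes and all alternatives, 505 of 597 values kept direction and call, 56 lost the call, 17 gained it and 19 changed sign, all of these in dark minus light.

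Across all expressed genes the replicate number showed little pairing of the samples. Over 15 pairs of times, the deviations of same-numbered samples correlated between -0.15 and 0.21, with 2 pairs over 0.1. A correlation over all genes cannot tell whether the series differ for a single gene. With the replicate block, 2120 genes were rhythmic (3 of the 7), 650 passed the cosine (1), 1395 the 6 times (3, without Pklr), 374 dark minus light (1) and 1815 ZT2 minus the others (5). Depth per sample was not used here, so no counting error is given, and it bears most on Pfkfb3, at 2.76 to 8.92 rpbp.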
